A study of Mus musculus with 24 samples.

Results

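The 35 genes described here encode the folding and quality control machinery of the endoplasmic reticulum (ER): chaperones, disulfide isomerases, sensors of the unfolded protein response, components of ER-associated degradation and parts of the translocon. They were chosen by name, as the gene symbols on a list of this machinery, and the rule sets no threshold on a measured value. The choice was made with earlier results of these data known, so it was not blind to them. All 35 were found among the 34866 genes listed in at least 1 of the tables. Ordered by role, they comprise 4 chaperones of the HSP70 and HSP90 families, 6 J proteins and other partners of BiP, 7 lectin chaperones and isomerases, 4 sensors and transcription factors, 11 degradation factors and 3 translocon subunits.

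Proteins that enter the ER are threaded through the SEC61 channel, glycosylated, folded by BiP, GRP94, calnexin, calreticulin and protein disulfide isomerases, and, if they fail to fold, drawn back to the cytosol and degraded. When unfolded protein accumulates, the sensors IRE1, PERK and ATF6 start the unfolded protein response. IRE1 splices Xbp1 mRNA, ATF6 is cut to a transcription factor, and both raise chaperone and degradation genes, while PERK slows translation and raises ATF4 and its targets. MHC class I is assembled in this compartment from a heavy chain, a peptide and beta-2-microglobulin, with calnexin, calreticulin and the disulfide isomerase PDIA3 taking part.

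The study compared 4 mouse tumour cell lines by bulk RNA-seq: MC38 (colon adenocarcinoma), LLC1 (Lewis lung carcinoma), AKR (esophageal carcinoma) and Hepa1-6 (hepatocellular carcinoma). In each line, cells with a guide RNA against B2m (sgB2m), the gene of beta-2-microglobulin, were set against cells with a non-targeting guide (sgNT), with 3 libraries in each of the 8 groups, 24 in all. Every group grew in DMEM with serum, with no other treatment named, and the controls carried a guide too. The labels do not say whether edited cells were clones or pools, or whether the 3 libraries of a group came from separate cultures, so the p-values measure the spread between these libraries, which may be technical.

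The guide labels and the expected cell types were checked first. Normalised B2m counts were 9721, 9507 and 9157 with sgB2m against 31028, 32812 and 33414 with sgNT for MC38, 4993, 5180.3 and 4963 against 16771, 16459 and 16455 for LLC1, 4694, 4096 and 4137 against 12476, 13147 and 12827 for AKR, and 2599, 2672 and 2451 against 6669.6, 6569.8 and 6495 for Hepa1-6. They were lower in each sgB2m library than in every sgNT library of its line, with log2 fold changes of -1.78 ± 0.042 (SE) for MC38, -1.71 ± 0.029 for LLC1, -1.57 ± 0.054 for AKR and -1.35 ± 0.04 for Hepa1-6. The transcript was therefore reduced and not absent, and gene-level counts do not show which transcripts carry an edit. A library held between 25.02 and 49.7 M counted reads. Of 9 hepatocyte markers, 7 had a mean log2 level of at least 6 in Hepa1-6 sgNT and 6 in sgB2m, and their summed normalised counts per library ran from 470092 to 476979 in sgNT and from 433095 to 436127 in sgB2m. The other labelled tissues were thinly marked: 2 of 7 squamous markers reached that level in AKR, 1 of 7 intestinal markers in MC38 and 2 of 6 lung markers in LLC1, where Nkx2-1 was not listed. Markers of tissues other than the labelled one reached it too, with 3 (sgNT) and 4 (sgB2m) of 7 intestinal markers in AKR, 2 of 7 squamous markers in MC38 and 5 of 7 intestinal markers in Hepa1-6. The lung marker Abca3 reached it in every line, and Lgals4, the intestinal marker of MC38, did so in AKR and Hepa1-6 as well. Of 6 T and NK cell markers, 9 reads in all were counted in MC38 sgB2m and 0 in the other 7 groups. In bulk libraries, fewer cells of a type and less RNA per cell cannot be told apart.

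Normalised counts are counts divided by a size factor set within a line. A member rose or fell where limma's moderated test gave an adjusted p under 0.05 (Benjamini-Hochberg over all genes tested in that line), and a log2 fold change is sgB2m over sgNT, on the log2(normalised count + 1) scale, ± its standard error. Of the 35 members, 34 passed the filter on low values in MC38, LLC1 and Hepa1-6 and all 35 in AKR. The one that did not is Derl3, a derlin of secretory tissues, for which MC38 had 8 reads with sgB2m and 32 with sgNT, LLC1 4 and 4, and Hepa1-6 0 and 1.

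The members moved in unlike ways in the 4 lines. In AKR 22 of 35 fell and 3 rose, where 21.9% of all genes tested fell and 21% rose. In Hepa1-6 19 of 34 fell and 5 rose, against 19.2% and 18.6% of all genes. In LLC1 17 of 34 fell and 6 rose, against 21.8% and 20.7%. In MC38 9 of 34 rose and 6 fell, against 15.9% and 15.8%, so that neither share stood far from that of all genes. The median log2 fold change over the members was -0.29 in AKR, -0.13 in Hepa1-6, -0.11 in LLC1 and 0.02 in MC38, while the median over all genes lay between -0.01 and 0.01 in each line. After quantile normalisation the member medians were -0.21 in AKR, -0.10 in Hepa1-6, -0.05 in LLC1 and -0.016 in MC38. The members were not set beside genes of like level in these shares and medians. The changes of the members were smaller in size than that of B2m in the same line: the largest was -1.20, for Herpud1 in AKR. The median absolute change of the members was 0.33 in AKR, 0.19 in Hepa1-6, 0.17 in LLC1 and 0.12 in MC38, beside 0.26, 0.21, 0.23 and 0.23 for all genes.

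Other features of the libraries moved with the guide as well. Mitochondrial transcripts took 4.02% to 4.04% of reads in AKR sgB2m and 3.49% to 3.54% in sgNT, 4.1% to 4.32% in Hepa1-6 sgB2m and 4.97% to 5.18% in sgNT, and 3.3% to 3.38% in MC38 sgB2m and 3.07% to 3.21% in sgNT. In AKR the summed normalised counts of 6 myeloid markers ran from 6842 to 7225 per library in sgB2m and from 2463 to 2585 in sgNT, almost all of them Cd68, a lysosomal gene, while Adgre1 was not listed and Ptprc had 4 reads in sgB2m and 0 in sgNT. In AKR 7 intestinal markers summed to between 962 and 1140.3 in sgB2m and between 502 and 619.8 in sgNT, and 9 hepatocyte markers to between 245 and 257 and between 111 and 167. That hepatocyte sum was mostly Afp (701 reads in sgB2m, 305 in sgNT), while Apoa2 had 66 and 80 reads and Serpina1a 0 and 4. In LLC1 the myeloid markers ran from 218 to 303 in sgB2m and from 383 to 469 in sgNT, and in MC38 from 1024 to 1146 and from 806 to 873. The LLC1 sum followed Cd68 (398 reads in sgB2m, 919 in sgNT), while Lyz2 (430 and 347) and Csf1r (13 and 4) went the other way. The MC38 sum was almost all Cd68 as well (3035 and 2611). In Hepa1-6 7 squamous markers ran from 237 to 280.02 in sgB2m and from 341 to 397 in sgNT. The sums of other markers stood apart by guide too: squamous and lung in MC38, lung and endothelial in LLC1, and squamous in AKR. In Hepa1-6 the hepatocyte, lung, myeloid and endothelial sums did so as well. Several of these sums hold markers that moved in opposite ways. In Hepa1-6 Cd68 had 809 reads in sgB2m and 397 in sgNT, and Csf1r 411 and 844. In AKR Krt13 had 1422 and 606, and Sox2 634 and 1205. In MC38 Trp63 had 175 and 14, Krt14 5088 and 6380, and Krt13 63 and 197. The part of these features in the results for the members was not tested.

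How firmly these calls stood differed by line. Under 8 other settings and with each library left out in turn, 23 of 25 calls in AKR, 17 of 24 in Hepa1-6, 15 of 23 in LLC1 and 3 of 15 in MC38 were kept throughout, and none became a call in the opposite direction. The 3 kept in MC38 were the rises of Dnajc3, Sel1l and Edem3. In MC38, 3 members rose and 0 fell in a fit without an intensity trend. Leaving out an MC38 library moved the numbers that rose and fell to 4 and 3 without sgB2m replicate 1, 4 and 3 without sgB2m replicate 2, 5 and 4 without sgB2m replicate 3, 9 and 11 without sgNT replicate 1, and 3 and 4 without sgNT replicate 2. In AKR, quantile normalisation gave 7 that rose and 20 that fell, and in MC38 it gave 7 and 7. In LLC1, 2 rose and 13 fell without the trend.

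**Figure D1:**
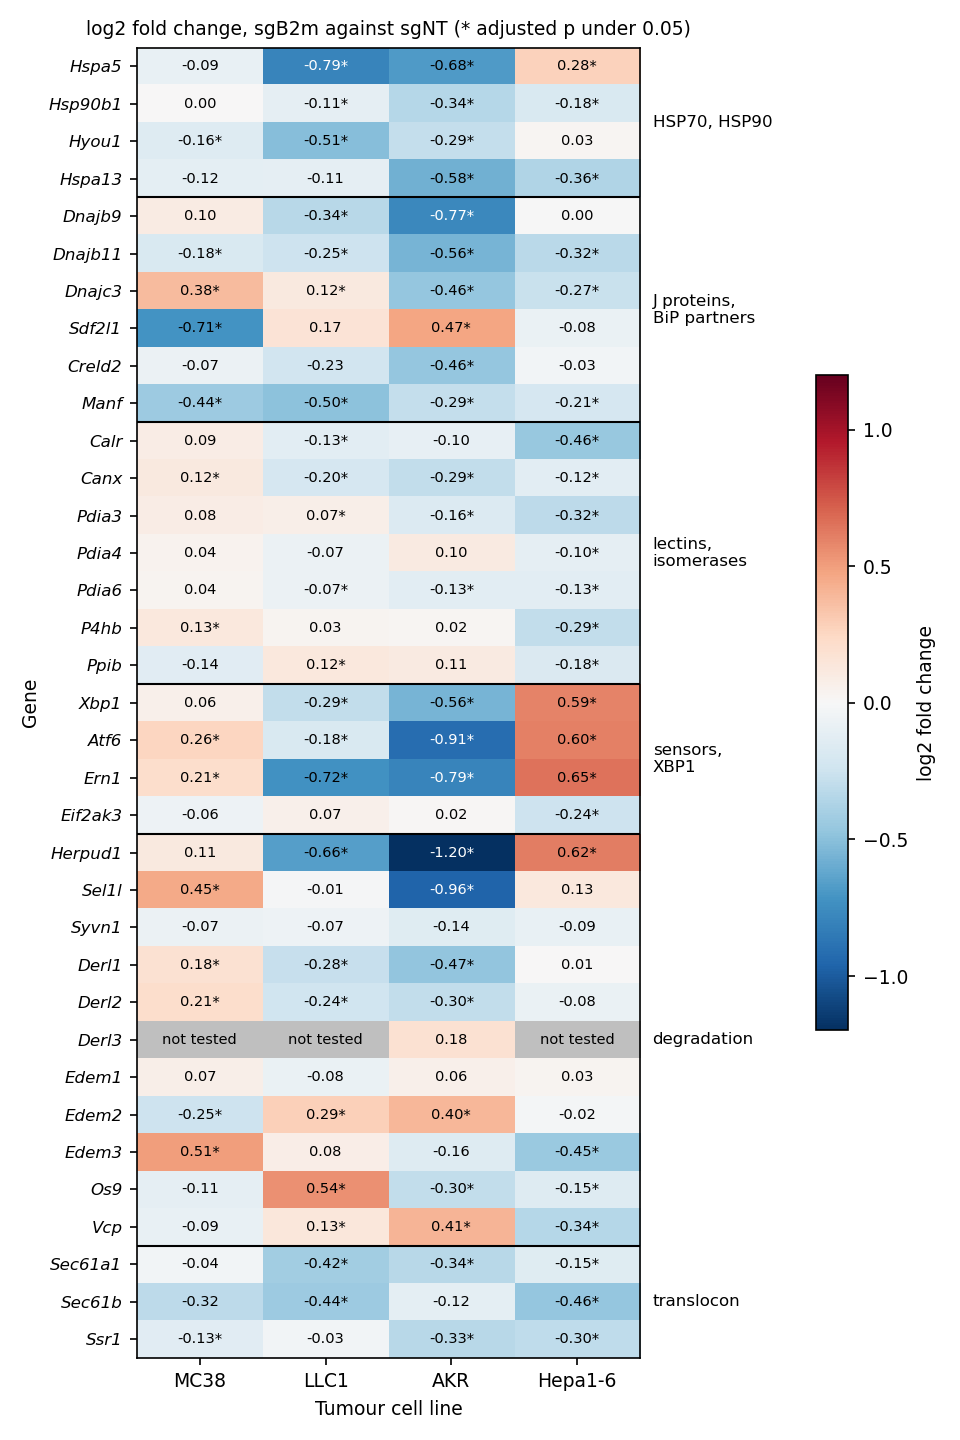
Log2 fold change of each of the 35 members (rows, grouped by role) in the 4 cell lines (columns), sgB2m against sgNT, with 3 libraries per group; colour and number give the change and an asterisk marks an adjusted p under 0.05. The AKR column holds 22 falls and 3 rises, and the rows of Hspa5, Xbp1, Atf6, Ern1 and Herpud1 are negative in LLC1 and AKR and positive in Hepa1-6.

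Hspa5 encodes BiP, the HSP70 of the ER, which binds unfolded chains and holds the stress sensors inactive. It fell in LLC1 and AKR and rose in Hepa1-6. In LLC1 its normalised counts were 30079.9, 30651 and 31346 in the sgB2m libraries and 52060.0, 54640.3 and 52409.5 in the sgNT libraries. All sgB2m values lay below all sgNT values, a 1.73-fold decrease (-0.79 ± 0.025, adjusted p = 1.1e-11 by limma). In AKR they were 78524, 73631 and 76323 against 120944, 122828 and 122168. The groups were again apart, with a 1.6-fold decrease (-0.68 ± 0.035, adjusted p = 2.33e-07 by limma). In Hepa1-6 the counts were 44877, 43426 and 44332 in sgB2m against 36244, 36533 and 36471 in sgNT. Here every sgB2m library was the higher, by 1.21-fold (0.28 ± 0.018, adjusted p = 8.1e-09 by limma). In MC38 the counts were 27930.2, 29499 and 29040.2 against 30126, 30599.7 and 31322. Those groups did not overlap, but the difference did not pass the test (-0.09 ± 0.036, adjusted p = 0.0849 by limma). It did pass after quantile normalisation (-0.15, adjusted p = 0.00966 by limma) and without sgNT replicate 1 (-0.10, adjusted p = 0.0191 by limma).

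The other 3 chaperones of this group fell wherever they were called. Over all 4 genes, 4 fell in AKR, 3 in LLC1 and 1 in MC38, with no rise, while 2 fell and 1 rose in Hepa1-6. Of all genes tested, 21.9% fell in AKR, 21.8% in LLC1, 15.8% in MC38 and 19.2% in Hepa1-6, where 18.6% rose. Hsp90b1, which encodes the ER HSP90 GRP94, fell in LLC1 (-0.11 ± 0.024), AKR (-0.34 ± 0.033) and Hepa1-6 (-0.18 ± 0.019), and its value in MC38 was 0.00 ± 0.033. Its counts in AKR were 37478, 35718 and 36591 in sgB2m and 46581, 45771 and 46456 in sgNT. The sgB2m libraries were all lower there. The LLC1 fall of Hsp90b1 was lost after quantile normalisation (-0.03, adjusted p = 0.254 by limma) and without the trend (0.0991). Hyou1, the nucleotide exchange factor of BiP, fell in MC38 (-0.16 ± 0.041), LLC1 and AKR (-0.29 ± 0.037), and stood at 0.03 ± 0.034 in Hepa1-6. The MC38 fall was lost without sgB2m replicate 2 or 3 (adjusted p from 0.0669 to 0.0684 by limma). In LLC1 its counts were 4849, 5047 and 5101 in sgB2m and 7070.2, 7054 and 7205 in sgNT, without overlap (-0.51 ± 0.033, adjusted p = 2.49e-08 by limma). Hspa13, a small HSP70-like ATPase of microsomes, had counts of 3653, 3694 and 3703 in AKR sgB2m and 5445, 5430.2 and 5597 in sgNT. All sgB2m values were lower (-0.58 ± 0.039, adjusted p = 1.48e-06 by limma), and Hspa13 also fell in Hepa1-6 (-0.36 ± 0.056). Its values in MC38 (-0.12 ± 0.069) and LLC1 (-0.11 ± 0.044) did not pass.

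Promoters of this gene family are known for the ER stress response element (ERSE), bound by ATF6 with NF-Y, and the shorter ERSE-II. Stretches of 5 member promoters are shown so that these elements can be read beside the changes of the genes that carry them. In the RefSeq promoter table (GRCm38.p6, 250 bases before to 50 after each start), 29 of the 35 members were found and Hyou1, Hspa13, Manf, Atf6, Derl1 and Sec61a1 were not. The letters searched, on both strands, were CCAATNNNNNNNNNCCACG for ERSE, ATTGGNCCACG for ERSE-II, TGACGTG for the core bound by XBP1 and ATF6 (UPRE core) and TGATGNAA for the core bound by ATF4 (CARE core). The following stretches are printed 5′ to 3′ along the gene's strand, with the matches in capitals.
Hspa5 (chr2:34771921-34772055, plus strand; UPRE core, then ERSE): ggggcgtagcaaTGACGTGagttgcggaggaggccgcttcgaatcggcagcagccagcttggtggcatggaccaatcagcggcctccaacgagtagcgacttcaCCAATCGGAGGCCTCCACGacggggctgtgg
Hsp90b1 (chr10:86705521-86705668, minus strand; ERSE, once in each orientation): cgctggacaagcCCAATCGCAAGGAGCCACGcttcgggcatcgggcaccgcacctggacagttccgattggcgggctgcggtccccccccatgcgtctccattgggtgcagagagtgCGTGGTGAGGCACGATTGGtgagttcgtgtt
Calr (chr8:84847063-84847105, minus strand; ERSE, reverse orientation): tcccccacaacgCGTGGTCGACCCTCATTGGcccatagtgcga
Dnajc3 (chr14:118937815-118937857, plus strand; ERSE): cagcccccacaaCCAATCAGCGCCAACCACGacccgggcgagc
Herpud1 (chr8:94386305-94386399, plus strand; CARE core in reverse orientation, then ERSE-II): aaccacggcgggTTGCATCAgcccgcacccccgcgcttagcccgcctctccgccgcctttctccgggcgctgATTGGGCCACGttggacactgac
The ERSE of Hspa5 begins 65 bases before the start, that of Dnajc3 105 and the ERSE-II of Herpud1 52.

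An ERSE match was present in 9 of the 29 members (31%): Hspa5, Hsp90b1, Calr, Canx, Creld2, Derl3, Dnajc3, Pdia6 and Syvn1. It was present in 37 of all 27025 genes of the table (0.137%), or 39 of 32851 windows (0.119%). ERSE-II was found in Dnajb11 and Herpud1 among the members and in 12 genes in all (0.0444%, or 0.0365% of windows). The UPRE core was found in Hspa5 and Vcp, and in 2.22% of genes (2.01% of windows), and the CARE core in Herpud1 and in 4.51% of genes (3.97% of windows). A match is a description of the letters and not evidence of a bound site. Among the 11 members with ERSE or ERSE-II, 8 of 11 tested fell in AKR, with a median of -0.34, and 7 of 10 fell in LLC1, with a median of -0.16. Among the 18 with neither, 8 fell in AKR (median -0.14) and 5 in LLC1 (median 0.01). Of all genes tested, 21.9% fell in AKR and 21.8% in LLC1. In MC38 the medians were 0.02 with and 0.05 without a match, and in Hepa1-6 both were -0.13. These groupings were not tested against each other.

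J proteins hand clients to BiP and start its ATPase cycle. In AKR 5 of the 6 members in this group fell and 1 rose, beside 3 and 1 in LLC1, 3 and 1 in MC38, and 3 and 0 in Hepa1-6. Shares of all genes that fell and rose were 21.9% and 21% in AKR and 21.8% and 20.7% in LLC1. They were 15.8% and 15.9% in MC38 and 19.2% and 18.6% in Hepa1-6. Dnajb9 (ERdj4), a J protein that returns IRE1 to its inactive state with BiP, had AKR counts of 1517, 1449.7 and 1398 in sgB2m against 2600.3, 2485 and 2383 in sgNT. The groups did not overlap (-0.77 ± 0.055, adjusted p = 2.03e-06 by limma). It also fell in LLC1 (-0.34 ± 0.053) and stood at 0.10 ± 0.082 in MC38 and 0.00 ± 0.097 in Hepa1-6. Dnajb11 (ERdj3), which stays bound to unfolded chains and can be secreted with them, was one of 2 members that fell in all 4 lines. In AKR its counts were 2694, 2488 and 2437 in sgB2m and 3664, 3901 and 3636 in sgNT, with all sgB2m values lower (-0.56 ± 0.053, adjusted p = 1.38e-05 by limma). It changed by -0.25 ± 0.048 in LLC1, -0.32 ± 0.053 in Hepa1-6 and -0.18 ± 0.047 in MC38. The MC38 call was lost without the trend (adjusted p = 0.056 by limma), without sgB2m replicate 1 (0.0523) and without sgB2m replicate 2 (0.0624). Dnajb11 lies on chromosome 16, whose genes had a median log2 fold change of -0.12 in MC38, and the part of that shift was not tested. Dnajc3 (p58IPK), a co-chaperone that also restrains PERK, rose in MC38 (0.38 ± 0.054) and LLC1 (0.12 ± 0.044) and fell in AKR (-0.46 ± 0.045) and Hepa1-6 (-0.27 ± 0.047). The LLC1 rise was lost without sgB2m replicate 1 or 3 or sgNT replicate 1 or 3 (adjusted p from 0.0557 to 0.155 by limma). Dnajc3 lies on chromosome 14, whose genes had a median of 0.13 in LLC1, no smaller than the rise of Dnajc3 there. That median was -0.003 in MC38, and the part of the LLC1 shift was not tested. The MC38 counts were 3174, 3045 and 3234 in sgB2m against 2527, 2364 and 2359 in sgNT, and the AKR counts 3133, 3233 and 2983 against 4232, 4343 and 4295. The sgB2m libraries were thus all higher in MC38 and all lower in AKR.

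Manf, a secreted factor that binds BiP and stabilises its complexes with clients, was the other member that fell in all 4 lines. Its counts in LLC1 were 2138, 2005 and 2223 in sgB2m and 2836, 3190.2 and 2954 in sgNT, without overlap (-0.50 ± 0.053, adjusted p = 3.7e-06 by limma). In MC38 they were 2694, 2750.0 and 2997 against 3341, 3686 and 4499. The sgNT libraries of MC38 were all higher but spread widely (-0.44 ± 0.097, adjusted p = 0.00674 by limma, and 0.0618 without the trend). Manf changed by -0.29 ± 0.055 in AKR and by -0.21 ± 0.042 in Hepa1-6. Sdf2l1, a partner of ERdj3, fell in MC38 and rose in AKR. In MC38 its counts were 383, 455 and 439 in sgB2m and 528, 801 and 802 in sgNT. sgNT replicate 1 lay well below the other two, but above every sgB2m library (-0.71 ± 0.16, adjusted p = 0.00716 by limma, and 0.0529 without the trend). In AKR the counts were 864, 794 and 690.5 against 576, 557 and 552, with every sgB2m library higher (0.47 ± 0.088, adjusted p = 0.00131 by limma). Its values in LLC1 (0.17 ± 0.094) and Hepa1-6 (-0.08 ± 0.11) did not pass. Creld2, an ER-stress-induced isomerase-like protein, fell in AKR, from 1525, 1566 and 1556 in sgNT to 1176, 1118 and 1077 in sgB2m (-0.46 ± 0.056), and was called in no other line.

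Lectin chaperones hold glycoproteins while disulfide isomerases shape their cysteine bonds, and calreticulin and PDIA3 are also parts of the MHC class I loading complex. All 7 members of this group fell in Hepa1-6, by amounts from -0.10 to -0.46, beside 19.2% of all genes there. No other line showed a fall of all 7. Calr counts in Hepa1-6 were 18748, 18709 and 19325 in sgB2m and 25461, 25815 and 26746 in sgNT. Every sgB2m library was lower, by 1.37-fold (-0.46 ± 0.024, adjusted p = 5.83e-10 by limma). Pdia3 had 19259, 18660.0 and 18885 against 23345, 23588 and 23854 there. The groups of Pdia3 were apart too (-0.32 ± 0.022, adjusted p = 1.41e-08 by limma). P4hb, the classical protein disulfide isomerase, changed by -0.29 ± 0.019, Ppib, a prolyl isomerase that acts on collagen among other clients, by -0.18 ± 0.05, Pdia6 by -0.13 ± 0.029, Canx, which encodes calnexin, by -0.12 ± 0.022 and Pdia4 by -0.10 ± 0.032. The falls of Canx, Pdia4, Pdia6 and Ppib were less firm: Canx and Pdia6 lost the call in the fit without the trend, Pdia4 without sgB2m replicate 1 or sgNT replicate 3 (adjusted p from 0.0822 to 0.0862 by limma), and Ppib without sgB2m replicate 3 or sgNT replicate 3 (adjusted p from 0.0552 to 0.0606 by limma).

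In the other lines fewer of the 7 genes were called. Among all genes, 21.9% fell and 21% rose in AKR, 21.8% and 20.7% in LLC1, and 15.8% and 15.9% in MC38. In AKR 3 fell (Canx (-0.29 ± 0.032), Pdia3 (-0.16 ± 0.041) and Pdia6 (-0.13 ± 0.038)) and 0 rose. In LLC1 3 fell (Canx (-0.20 ± 0.029), Calr (-0.13 ± 0.026) and Pdia6 (-0.07 ± 0.027)) and 2 rose (Ppib (0.12 ± 0.035) and Pdia3 (0.07 ± 0.027)). In MC38 2 rose (P4hb (0.13 ± 0.035) and Canx (0.12 ± 0.031)) and 0 fell. Calr stood at 0.09 ± 0.043 in MC38 and -0.10 ± 0.041 in AKR, neither past the test. The direction of this group depended on the scaling: after quantile normalisation 3 rose and 1 fell in both LLC1 and AKR. Without the trend Calr in LLC1 (adjusted p = 0.0521 by limma) and Pdia3 in AKR (0.0705) lost their calls. The fall of Canx was kept under every setting in both of those lines. Single libraries decided several of the smaller calls. In AKR the call of Pdia6 was lost without sgB2m replicate 2 or 3 or sgNT replicate 2 or 3 (adjusted p from 0.0529 to 0.0767 by limma). In LLC1 that of Ppib was lost without sgNT replicate 2 (adjusted p = 0.0639 by limma), that of Pdia3 without sgB2m replicate 1 or 2 or sgNT replicate 1, 2 or 3 (adjusted p from 0.0738 to 0.186 by limma), and that of Pdia6 without sgB2m replicate 1 or 3 or sgNT replicate 1, 2 or 3 (adjusted p from 0.0734 to 0.162 by limma). In MC38 that of P4hb was lost without sgB2m replicate 1, 2 or 3 or sgNT replicate 2 (adjusted p from 0.0768 to 0.0982 by limma), and that of Canx without sgB2m replicate 1, 2 or 3 or sgNT replicate 2 (adjusted p from 0.0614 to 0.0891 by limma).

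The sensors and XBP1 changed in opposite directions between lines. Atf6, Ern1 (the gene of IRE1) and Xbp1 all fell in LLC1 and AKR and all rose in Hepa1-6, and each of these 9 calls was kept under every setting and without any library. In MC38 Atf6 (0.26 ± 0.064) and Ern1 (0.21 ± 0.069) rose and Xbp1 did not pass the test. The gene of PERK, Eif2ak3, did not follow them: it fell in Hepa1-6 (-0.24 ± 0.067), a call lost without sgNT replicate 3 (adjusted p = 0.0527 by limma) there, and stood at -0.06 ± 0.066 in MC38, 0.07 ± 0.072 in LLC1 and 0.02 ± 0.066 in AKR.

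Xbp1 encodes the transcription factor made from the mRNA that IRE1 splices, and gene-level counts do not separate its spliced and unspliced forms. In AKR its counts were 6412, 6243 and 5938 in sgB2m and 9088, 9144 and 9074 in sgNT. All sgB2m values lay lower (-0.56 ± 0.04, adjusted p = 2.23e-06 by limma). In LLC1 they were 2468, 2600.0 and 2392 against 2907, 3173 and 3054, again without overlap (-0.29 ± 0.047, adjusted p = 0.00017 by limma). In Hepa1-6 they were 9501, 9393 and 9736 against 6252, 6249.6 and 6459.7. The sgB2m libraries were all higher, by 1.51-fold (0.59 ± 0.03, adjusted p = 3.74e-10 by limma). In MC38 the counts, 2723, 2735 and 2932 against 2503, 2789 and 2758, overlapped (0.06 ± 0.061, adjusted p = 0.492 by limma).

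Atf6, a membrane-bound factor released by cleavage in the Golgi, had AKR counts of 7973, 9088 and 9015 in sgB2m and 16209, 16075 and 16724 in sgNT. All sgB2m values were lower, by 1.88-fold (-0.91 ± 0.051, adjusted p = 3.79e-07 by limma). In Hepa1-6 they were 7687, 6819.5 and 7557 against 4896, 4779 and 4836, all sgB2m libraries being higher (0.60 ± 0.041, adjusted p = 1.55e-08 by limma). The LLC1 fall was smaller (-0.18 ± 0.033). Atf6 lies on chromosome 1 (minus strand, 170704674 to 170867771, GRCm38), where the 1013 genes tested in MC38 had a median log2 fold change of 0.23, against -0.03, -0.01 and 0.02 in LLC1, AKR and Hepa1-6. The part of this chromosome-wide shift in the MC38 rise of Atf6 was not tested, and that call was lost without the trend (adjusted p = 0.0671 by limma) and without sgNT replicate 2 (0.0531).

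Ern1 counts in LLC1 were 3229.5, 2792 and 2835 in sgB2m and 4989, 4938 and 4653 in sgNT, without overlap (-0.72 ± 0.053, adjusted p = 8.16e-08 by limma). In AKR they were 4861, 6037 and 5783 against 9554, 9043 and 10155. The first sgB2m library was the lowest of its group and all 3 were below sgNT (-0.79 ± 0.074, adjusted p = 1.27e-05 by limma). In Hepa1-6 the counts of Ern1 were 4446, 4541 and 4411 against 2906, 2710.1 and 2927. That was the largest rise among the members there, 1.57-fold (0.65 ± 0.041, adjusted p = 6.33e-09 by limma). The rise of Ern1 in MC38 was lost under 3 alternative settings, and also without sgB2m replicate 1, 2 or 3 or sgNT replicate 2 or 3 (adjusted p from 0.063 to 0.142 by limma).

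**Figure D2:**
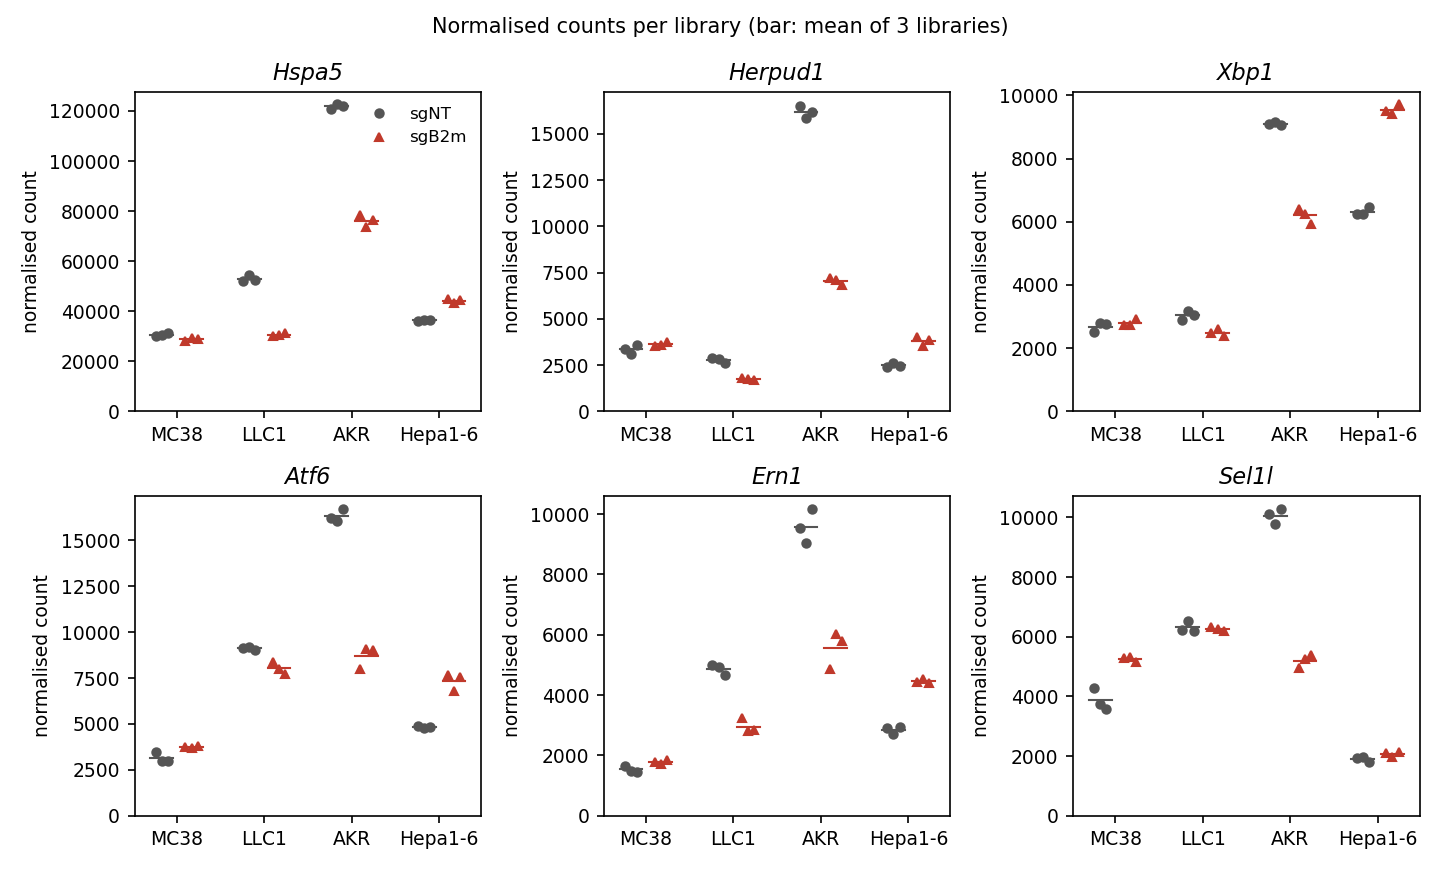
Normalised counts of 6 members in each of the 24 libraries, by cell line (x axis) and guide (colour), with a bar at the mean of the 3 libraries; the y axes start at 0 and the scale is set within a line. The sgB2m points of Hspa5, Xbp1, Atf6 and Herpud1 lie below the sgNT points in LLC1 and AKR and above them in Hepa1-6.

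In ER-associated degradation, lectins pick out misfolded glycoproteins, the HRD1 ligase complex (Syvn1, Sel1l, Herpud1 and the derlins) moves them across the membrane, and the ATPase VCP pulls them out. Of the degradation genes, 5 of 11 tested fell and 2 rose in AKR. Of the 10 tested in the other lines, 3 fell and 3 rose in LLC1, 3 fell and 1 rose in Hepa1-6, and 1 fell and 4 rose in MC38. Among all genes, 21.9% fell and 21% rose in AKR, and 21.8% and 20.7% in LLC1. The shares were 19.2% and 18.6% in Hepa1-6 and 15.8% and 15.9% in MC38. The group was not tested against these shares. Herpud1, a short-lived scaffold of that complex and a classical stress target, showed the largest change of all members. In AKR its counts were 7188, 7121 and 6853 in sgB2m and 16526, 15876 and 16168 in sgNT. Every sgB2m value was far below the lowest sgNT value, for a 2.3-fold decrease (-1.20 ± 0.037, adjusted p = 1.27e-08 by limma). In LLC1 the counts were 1828, 1774 and 1675 against 2908, 2821 and 2641, without overlap (-0.66 ± 0.051, adjusted p = 1.32e-07 by limma). In Hepa1-6 they were 4009.8, 3551 and 3886 against 2379, 2599 and 2481, with every sgB2m library higher (0.62 ± 0.051, adjusted p = 1.25e-07 by limma). In MC38 the counts, 3538, 3583 and 3779.9 and 3354, 3129.6 and 3612, overlapped (0.11 ± 0.061, adjusted p = 0.193 by limma).

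Sel1l, the adaptor that holds the HRD1 ligase to its lectins, had AKR counts of 4939, 5241 and 5371 in sgB2m and 10107, 9776 and 10286 in sgNT. All sgB2m values were lower, by 1.94-fold (-0.96 ± 0.044, adjusted p = 1.21e-07 by limma). In MC38 it rose, with 5299, 5335 and 5164 against 4269.5, 3747 and 3575 and no overlap (0.45 ± 0.065, adjusted p = 0.000628 by limma), and its values were -0.01 ± 0.033 in LLC1 and 0.13 ± 0.054 in Hepa1-6. Syvn1, the ligase itself, was called in no line, with values from -0.14 (AKR) to -0.07 (LLC1). The derlins Derl1 and Derl2, which form the channel, rose in MC38 (0.18 ± 0.055 and 0.21 ± 0.061) and fell in LLC1 (-0.28 ± 0.047 and -0.24 ± 0.052) and AKR (-0.47 ± 0.044 and -0.30 ± 0.05). The MC38 rise of Derl1 was lost without sgB2m replicate 1 or 2 or sgNT replicate 2 (adjusted p from 0.0587 to 0.107 by limma), and that of Derl2 without sgB2m replicate 1, 2 or 3 or sgNT replicate 2 or 3 (adjusted p from 0.0575 to 0.0907 by limma). Neither gene was called in Hepa1-6. The genes of chromosome 12, where Sel1l lies, had a median log2 fold change of 0.10 in MC38. Those of chromosome 15, where Derl1 lies, had one of 0.09, and the part of these shifts was not tested. Derl3 was tested only in AKR, on 31 reads in sgB2m and 27 in sgNT, with a value of 0.18 ± 0.58.

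The mannosidase-like EDEM proteins trim glycans to mark proteins for degradation, and they did not move together. Edem3 rose in MC38, from 2094, 1963 and 1842 in sgNT to 2854, 2743 and 2768 in sgB2m. The groups were apart (0.51 ± 0.061, adjusted p = 0.000207 by limma). Edem3 also lies on chromosome 1 (plus strand, 151755371 to 151822051), whose median shift in MC38 was 0.23, and the part of that shift was not tested. In Hepa1-6 it fell, from 6816, 6717 and 6476 to 4935, 4735 and 5017 (-0.45 ± 0.035, adjusted p = 7.32e-08 by limma). Edem2 rose in LLC1 (0.29 ± 0.063) and AKR (0.40 ± 0.051), against the direction of most members there. Its AKR counts were 2821, 2801 and 2740.2 in sgB2m against 2073, 2242 and 2048 in sgNT, all sgB2m values being higher. In MC38 Edem2 fell (-0.25 ± 0.081), a call lost under 3 settings and without sgB2m replicate 1 or 3 or sgNT replicate 2 or 3 (adjusted p from 0.102 to 0.134 by limma). Edem1 was called in no line, with values from -0.08 in LLC1 to 0.07 in MC38.

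Os9, a lectin that presents trimmed glycoproteins to SEL1L, had LLC1 counts of 3954, 3623 and 3991 in sgB2m and 2657, 2680.4 and 2591 in sgNT. It was the largest rise among the members in LLC1, 1.46-fold without overlap (0.54 ± 0.045, adjusted p = 2.51e-07 by limma). It fell in AKR (-0.30 ± 0.061) and Hepa1-6 (-0.15 ± 0.04), the second call being lost without the trend. Vcp, an ATPase with many cellular roles beyond the ER, rose in AKR and LLC1 (0.13 ± 0.03) and fell in Hepa1-6. The LLC1 rise was lost without the trend (adjusted p = 0.0595 by limma). In AKR its counts were 20563, 19617 and 20155 in sgB2m and 14841, 15294 and 15231 in sgNT, with every sgB2m library higher (0.41 ± 0.035, adjusted p = 7e-06 by limma). In Hepa1-6 the order was reversed, with 16943, 17391 and 17782 against 21807, 21907 and 22473 (-0.34 ± 0.024, adjusted p = 1.75e-08 by limma).

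The translocon genes fell wherever they were called. Sec61a1, the pore subunit, fell in LLC1, from 6832, 7167 and 6965 in sgNT to 5044, 5620.2 and 5036 in sgB2m. The groups did not overlap (-0.42 ± 0.043, adjusted p = 2.21e-06 by limma). It fell also in AKR (-0.34 ± 0.036) and Hepa1-6 (-0.15 ± 0.029), the second call being lost without the trend (adjusted p = 0.0637 by limma). Sec61b, a small accessory subunit, fell in Hepa1-6, from 2207, 2206 and 2152 to 1624, 1599 and 1544 (-0.46 ± 0.049, adjusted p = 1.98e-06 by limma). In LLC1 its counts were 450.0, 567 and 775 in sgB2m and 844, 879 and 663 in sgNT. These overlapped (-0.44 ± 0.15, adjusted p = 0.0335 by limma), and the call was lost without the filter (adjusted p = 0.206), without the trend (0.196), with a replicate block (0.0506), and without sgB2m replicate 1 (-0.25, adjusted p = 0.144), sgB2m replicate 2 (0.0845), sgNT replicate 1 (0.103) or sgNT replicate 2 (0.12). Ssr1, a subunit of the translocon-associated protein complex, fell in AKR (-0.33 ± 0.035), Hepa1-6 (-0.30 ± 0.028) and MC38 (-0.13 ± 0.039), the last call being lost without sgB2m replicate 1, 2 or 3 or sgNT replicate 2 or 3 (adjusted p from 0.0508 to 0.116 by limma).

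Across the lines, 32 of the 35 members were called in at least 1 line, 18 in both directions and 2 (Dnajb11 and Manf) as falling in all 4. Syvn1, Edem1 and Derl3 were called in none. These counts include calls that other settings or a left-out library undid, and only 3 of 15 calls in MC38 were kept throughout. The MC38 falls of Dnajb11 and Manf were lost without the trend (adjusted p = 0.056 and 0.0618 by limma). Of the 15 members that fell in both LLC1 and AKR, 5 rose in Hepa1-6 (Hspa5, Xbp1, Atf6, Ern1 and Herpud1), 6 fell there and 4 were not called. In a single line, 15.8% to 21.9% of all genes fell and 15.9% to 21% rose. These counts across lines were not made over all genes, so they are not shown to be particular to the members. The difference between lines was tested directly, as the interaction of line and guide in a limma model of all 24 libraries, over the 12674 genes tested in every line. The response of 30 of 34 members differed (adjusted p under 0.05), against 69.8% of all genes. With a stricter filter, a log2 value of at least 5, it was 30 of 34 members beside 8503 of 11071 genes. The members were not set beside genes of like level. The lowest adjusted p-values were 6.14e-16 for Hspa5, 7.48e-15 for Herpud1, 4.18e-13 for Atf6, 7.65e-13 for Sel1l and 1.87e-12 for Xbp1, from limma's F test. The 4 members without a difference past the threshold were Manf, Sec61b, Edem1 and Syvn1.

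Each line was also set against the mean response of the other 3. AKR differed for 25 of 34 members, 20 lower and 5 higher, where 44.4% of all genes differed. MC38 differed for 25, 21 higher and 4 lower, against 41.7% of all genes. A higher contrast is relative to the other lines and need not be a rise, as 9 of 34 members rose in MC38 itself. Hyou1 (0.10 ± 0.037) and Dnajb11 (0.19 ± 0.055) were among the higher, yet changed by -0.16 and -0.18 within MC38. Hepa1-6 differed for 21, 9 higher and 12 lower (41.5% of all genes), and LLC1 for 19, 9 higher and 10 lower (41.3%). The contrast of Hepa1-6 was 1.20 ± 0.061 for Herpud1, 1.08 ± 0.079 for Ern1, 0.88 ± 0.062 for Atf6, 0.86 ± 0.051 for Xbp1 and 0.80 ± 0.033 for Hspa5, on the log2 scale. The contrast of AKR was -1.22 ± 0.061 for Herpud1, -1.14 ± 0.059 for Sel1l and -1.14 ± 0.062 for Atf6, and that of MC38 was 0.73 ± 0.059 for Sel1l. The response of each line enters all 4 contrasts, which are therefore not independent of each other.

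The levels from which these changes started differed between lines. Tables were normalised separately, so levels across lines are given as CPM, counts per 1000000 recovered reads, in sgNT cells, as a description without a test. AKR had the highest median level for 18 of the 35 members, 16 of them with a range of 3 libraries that did not overlap that of the next line, and Hepa1-6 for 12 (10 apart). MC38 was highest for 3 (2 apart) and LLC1 for 2 (1 apart). The highest line was not counted over all genes, so this order is not shown to be particular to the members. Herpud1 stood at 510.2 CPM in AKR sgNT, 5.02 times the 101.7 CPM of LLC1, with 93.6 in MC38 and 86.5 in Hepa1-6. In AKR sgB2m it was 235 CPM, still above the sgNT level of the other lines. Hspa5 stood at 3880.5 CPM in AKR, 1907 in LLC1, 1279 in Hepa1-6 and 865 in MC38. Atf6 ranged from 520.1 CPM in AKR to 84.3 in MC38, Ern1 from 307 to 42.1, and Xbp1 from 290.2 to 77.2, in each case with AKR highest and MC38 lowest. Edem3 was highest in Hepa1-6, at 237 CPM, 2.65 times the 89.2 CPM of LLC1. Lengths of transcripts differ, so these levels compare lines for a gene and not genes with each other.

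**Figure D3:**
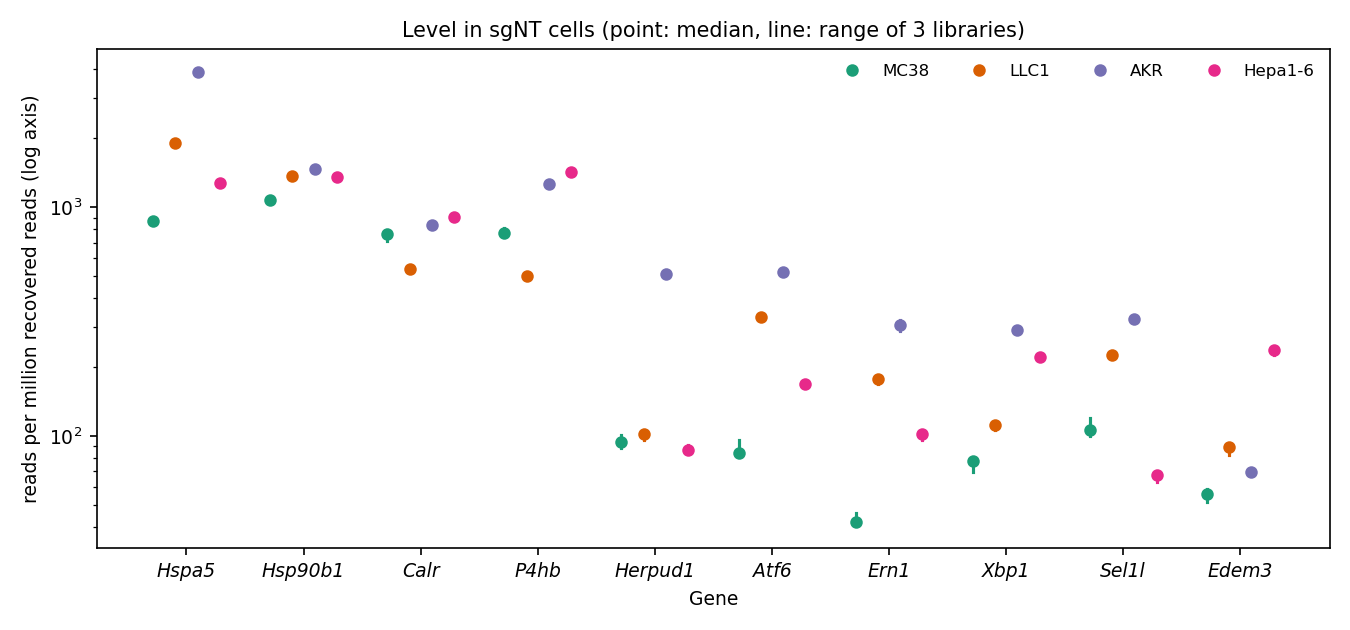
Level of 10 members in sgNT cells, in CPM on a log axis, by gene (x axis) and cell line (colour); points are medians and lines the range of 3 libraries. AKR is the highest line for Hspa5, Xbp1, Atf6, Ern1 and Herpud1, and its gap to the next line is 5.02-fold for Herpud1.

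Further genes of the pathway were read from 6 lists of 73 genes outside the members. The clearest contrast was in the outputs of the PERK arm, 9 genes raised by ATF4 or acting with it. All 9 fell in LLC1, 8 fell and 1 rose in AKR, 8 rose and 0 fell in Hepa1-6, and 4 rose and 1 fell in MC38, with medians of -0.69, -0.40, 0.63 and 0.10. Under the other settings and with each library left out, 9 still fell in LLC1, 8 fell and 1 rose in AKR, and 6 to 8 rose in Hepa1-6, while the MC38 counts stayed at 4 and 1. In LLC1 the largest falls were Chac1 (-1.61 ± 0.083), Ppp1r15a (-1.22 ± 0.054) and Atf3 (-1.09 ± 0.082), which encode a glutathione-degrading enzyme, the phosphatase subunit that ends the PERK signal and a stress transcription factor. Chac1 counts in LLC1 were 327, 299 and 352 in sgB2m and 983, 1051 and 964 in sgNT, all lower with the B2m guide. In AKR the largest were Atf3 (-1.24 ± 0.042), Ppp1r15a (-0.92 ± 0.041) and Trib3 (-0.67 ± 0.04), Trib3 being a pseudokinase induced by ATF4, and the 1 that rose was Nupr1 (0.39 ± 0.044), chosen for mention after its value was seen. In Hepa1-6 they were Ppp1r15a (1.76 ± 0.044), Atf3 (1.74 ± 0.088) and Chac1 (1.41 ± 0.085). Ppp1r15a counts were 4271, 4343 and 4452 in Hepa1-6 sgB2m and 1284, 1289 and 1280.0 in sgNT, 3.39-fold apart with no overlap (adjusted p = 9.34e-14 by limma). In MC38 the largest changes were Trib3 (0.51 ± 0.069), Sesn2 (0.41 ± 0.092) and Ppp1r15a (-0.37 ± 0.07), Sesn2 being a stress-induced regulator of growth signalling. Several of these genes also answer to amino acid supply and other stresses.

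The remaining lists were smaller in effect. Of 8 oligosaccharyltransferase subunits, which attach glycans to entering chains, 6 fell and 1 rose in AKR, 6 and 0 in Hepa1-6, 5 and 1 in LLC1, and 2 and 1 in MC38. The catalytic subunit gene Stt3a fell in LLC1 (-0.45 ± 0.032) and AKR (-0.51 ± 0.038), Krtcap2 in LLC1 (-0.56 ± 0.066) and AKR (-0.53 ± 0.052), and Dad1 in Hepa1-6 (-0.57 ± 0.075) and, by -0.28 ± 0.088, in MC38, while Dad1 rose in AKR (0.36 ± 0.072) and LLC1 (0.34 ± 0.065). Of 19 further degradation factors, 11 fell and 1 rose in AKR, 6 and 2 in LLC1, and 4 and 4 in Hepa1-6, and in MC38 5 fell and 5 rose. The membrane ligase Marchf6 fell in AKR (-0.56 ± 0.051) and LLC1 (-0.11 ± 0.04) and rose in MC38 (0.52 ± 0.062), Selenos, which encodes a selenoprotein that recruits VCP, fell in AKR (-0.52 ± 0.064), Hepa1-6 (-0.36 ± 0.066) and MC38 (-0.25 ± 0.062), and the deglycosylase Ngly1 rose in MC38 (0.63 ± 0.093) and fell in AKR (-0.16 ± 0.059).

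Of 14 other foldases and glycoprotein folding factors, 5 fell and 1 rose in AKR, 4 fell and 2 rose in LLC1 and in MC38, and 4 fell and 4 rose in Hepa1-6. The oxidase Ero1a, which recharges disulfide isomerases, fell in AKR (-0.87 ± 0.042), MC38 (-0.41 ± 0.063) and LLC1 (-0.22 ± 0.033) and rose in Hepa1-6 (0.17 ± 0.043). Uggt1, the folding sensor that returns glycoproteins to calnexin, fell in AKR (-0.44 ± 0.046), LLC1 (-0.25 ± 0.032) and Hepa1-6 (-0.10 ± 0.034) and rose in MC38 (0.47 ± 0.053), where it too lies on chromosome 1. Of 15 other translocon and targeting genes, 7 fell and 3 rose in AKR, 6 and 2 in Hepa1-6, 5 and 3 in LLC1, and 5 and 5 in MC38, where Sec11c fell most (-0.80 ± 0.075). Sec11c rose in AKR (0.22 ± 0.076). Of the 8 other stress transducers, Ern2 was tested in no line, and of the 6 tested in MC38, LLC1 and AKR 1, 2 and 3 fell and 0, 3 and 1 rose. In Hepa1-6 1 of 7 fell and 2 rose, and Traf2, an adaptor of IRE1 signalling, rose in Hepa1-6 (0.83 ± 0.098). The lists were counted without a test of the list, and their shares can be read against those of all genes given above.

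**Figure D4:**
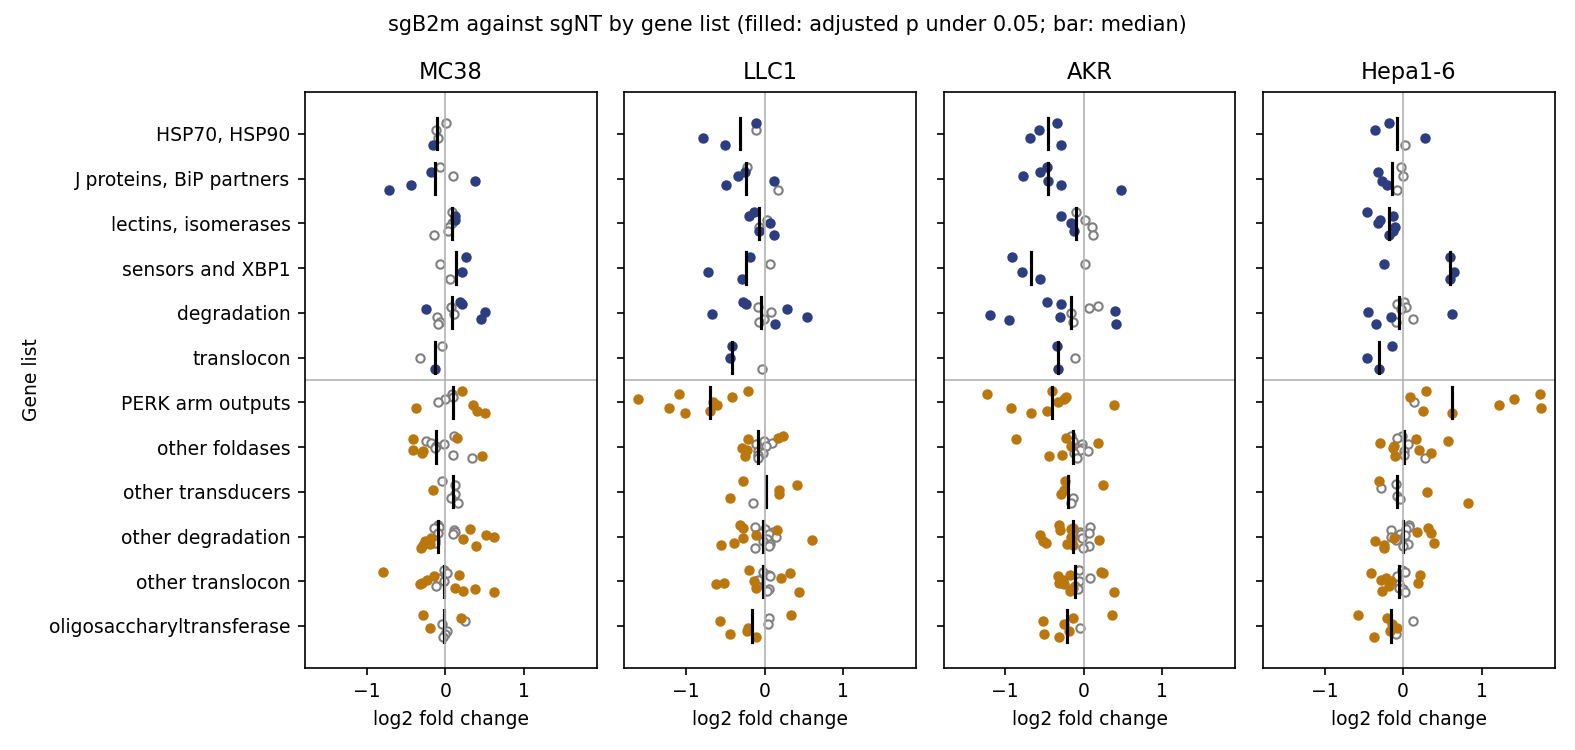
Log2 fold change (x axis) of every tested gene in each member group and pathway list (rows), one panel per cell line; filled points passed the test and bars are list medians. Most PERK arm outputs lie to the left of 0 in LLC1 (median -0.69) and AKR (-0.40) and to the right in Hepa1-6 (0.63).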

How the data were processed

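RNA-seq was made from total RNA with strand-specific, paired-end libraries, per the labels' protocols. The authors deposited 1 table per cell line with log2 values, and each value equalled log2(count / size factor + 1), with size factors set within a line. The tools named are STAR, DESeq2 and FastQC 0.11.5, with the mm10 build, per the submitters' processing notes. The versions of STAR and DESeq2, the counter, the annotation and the use of strand are not given in the sources used here, so reads of antisense or near-identical genes may not be separated. Whole reads were recovered from the deposited log2 values (100% within 0.05 of a whole number) and gave the library totals, the CPM and a voom alternative. All 24 libraries entered, and 0 value columns were left unmapped.

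A gene was tested in a line where 3 or more of its 6 libraries reached a log2 value of 3.5, with limma 3.58.1 in R 4.3.3 (moderated test with an intensity trend, sgB2m against sgNT within a line, two-sided, Benjamini-Hochberg over the genes of that line, threshold 0.05). The difference between lines was the interaction in a model of all 24 libraries. A pseudocount of 1 makes folds of low genes too small. Depths were 25.02 to 49.7 M reads per library, and 3 libraries per group limit the precision. The fitting was tried on simulated counts with 200 changed genes per line, and the lowest share recovered was 88%. Those counts were independent between libraries and had the same spread setting for every gene. The trial therefore does not show how firm the calls in the real libraries are.

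The members and lists were chosen with earlier results of these data known. Full statistics are given for Hspa5, Xbp1 and Herpud1 in every line and for at most 8 called members per line with an absolute log2 change of at least 0.4; at most 3 called genes per further list and line are named, with B2m as the label check. Values of members outside that rule were added for their role, and further called lines of a named list gene are given with it. Alternatives were a stricter filter (5), no filter, a pseudocount of 8, quantile normalisation, median centring, no intensity trend, voom, a replicate block and each library left out. Gene positions are those of GENCODE M21 (GRCm38). Protein sequences are not used here.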

Additional observations from a re-analysis of the deposited data

Results flagged for a closer look

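The response to the B2m guide differed between the 4 lines for 30 of the 34 members tested in all of them, by the interaction of line and guide (limma's F test, Benjamini-Hochberg adjusted p under 0.05). The 5 lowest adjusted p-values by limma were 6.14e-16 for Hspa5, 7.48e-15 for Herpud1, 4.18e-13 for Atf6, 7.65e-13 for Sel1l and 1.87e-12 for Xbp1. Such differences were common among all genes too, at 69.8%, and in 8503 of 11071 genes under the stricter filter.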

How the results depend on the processing

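No called member was called in the opposite direction under any alternative, but the fitted change of Pdia6 in LLC1, called as a fall, was 0.0028 and not called after quantile normalisation. The counts and medians over the members moved as follows. After quantile normalisation the median log2 fold change of the members was -0.016 for MC38 (0.02 as reported), -0.053 for LLC1, -0.21 for AKR and -0.10 for Hepa1-6, and 7 members rose in AKR. After median centring it was -0.33 in AKR and -0.15 in Hepa1-6. Without the intensity trend 3 members rose and 0 fell in MC38 and 2 rose in LLC1. The cause of these moves was not tested. Leaving out 1 library at a time gave 3 to 9 members that rose and 3 to 11 that fell in MC38, and medians from -0.31 to -0.29 in AKR. For LLC1 the counts were 4 to 5 and 16 to 17, for AKR 3 to 4 and 21 to 25, and for Hepa1-6 5 to 6 and 16 to 19. Members whose response differed between lines numbered 28 to 31. Of 33 named member changes, 258 of 264 values under the other settings and 193 of 198 with a library left out kept their direction and their side of the threshold.

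With a replicate block, 8 members of MC38 rose and 7 fell, beside 4 and 15 for LLC1, 3 and 23 for AKR, and 5 and 19 for Hepa1-6. Deviations of same-numbered libraries from their group means correlated between -0.03 and 0.05, and those of other numbers between -0.05 and 0.04. In LLC1 the same-numbered values were all positive, at 0.023, 0.051 and 0.028. These small values do not settle whether the numbers pair the libraries.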
